A study of Mus musculus with 58 samples.

Results

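The genes of triad and T-tubule structure were followed in mouse quadriceps muscle: Jph1, Jph2, Bin1, Trdn, Mtm1, Dysf, Cav3 and Dnm2. The members are every probe set (a group of short array probes read as 1 value) that the array annotation assigns to these 8 symbols. They make 25 probe sets and 8 genes, of 34945 probe sets and 18193 genes with exactly 1 symbol. They were chosen by name, with earlier results of these data known.

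The study profiled muscle RNA of 34 male mice on 58 arrays in 3 experiments. Experiment 1 compared 6 FVB wild-type mice with 6 mice of line 41 and 6 mice of line 20b, at 6 months of age. Both lines carry a CUGexp transgene, whose RNA holds an expanded CUG repeat. Experiment 2 compared 3 Clcn1-null mice, which lack the muscle chloride channel, with 3 BALB wild-type mice, at 3 months. Experiment 3 compared 5 Mbnl1-null mice, which lack a splicing regulator that binds CUG repeats, with 5 FVB wild-type mice, at 3 months. The labels call the modifications constitutive, and the promoter of the transgene is not given in the sources used here. Nothing beyond numbered titles says how mice of a group were related, so p-values measure only the spread between these mice. In whole muscle, fewer cells of a type and less RNA per cell cannot be told apart.

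At a triad, a T-tubule, an inward fold of the muscle fibre's surface membrane, lies between sarcoplasmic reticulum cisternae, so that the voltage sensor of the tubule faces the calcium release channel of the reticulum. Junctophilins (Jph1, Jph2) bridge that gap, and triadin (Trdn) ties the release channel to the calcium store protein calsequestrin. Bin1 and Cav3 shape the tubule membrane, Mtm1 acts on its lipids, Dnm2 cuts membrane necks and Dysf reseals torn membrane. Mtm1, Bin1 and Dnm2 are known as genes of centronuclear myopathy.

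Promoter windows of 300 bases around a transcript start were found in a RefSeq table (build GRCm38.p6) for 5 of the 8 members. Those of Cav3, Jph2 and Dysf are shown because probe sets of these genes were called in the tests below. Cav3 lies at chr6:112459505-112472872, Jph2 at chr2:163336242-163398049 and Dysf at chr6:84008361-84211060. Each sequence runs 5′ to 3′ on the strand in brackets. Capitals mark matches, on either strand, to the E-box CANNTG, the M-CAT motif CATTCC, the CArG box or the MEF2 site.
Cav3, chr6:112459255-112459554 (+): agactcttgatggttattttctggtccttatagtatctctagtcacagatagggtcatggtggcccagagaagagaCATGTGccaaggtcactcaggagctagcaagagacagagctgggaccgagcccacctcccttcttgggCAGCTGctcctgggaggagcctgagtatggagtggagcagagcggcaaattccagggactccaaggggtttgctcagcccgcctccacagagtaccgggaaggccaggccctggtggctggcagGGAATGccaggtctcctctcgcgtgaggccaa
Jph2, chr2:163397944-163398243 (-): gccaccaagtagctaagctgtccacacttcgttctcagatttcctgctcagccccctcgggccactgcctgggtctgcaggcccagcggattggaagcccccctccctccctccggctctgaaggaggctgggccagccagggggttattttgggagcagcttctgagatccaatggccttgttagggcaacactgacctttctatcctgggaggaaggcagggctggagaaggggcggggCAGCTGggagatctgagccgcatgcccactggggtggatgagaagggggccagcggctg
Dysf, chr6:84008348-84008647 (+): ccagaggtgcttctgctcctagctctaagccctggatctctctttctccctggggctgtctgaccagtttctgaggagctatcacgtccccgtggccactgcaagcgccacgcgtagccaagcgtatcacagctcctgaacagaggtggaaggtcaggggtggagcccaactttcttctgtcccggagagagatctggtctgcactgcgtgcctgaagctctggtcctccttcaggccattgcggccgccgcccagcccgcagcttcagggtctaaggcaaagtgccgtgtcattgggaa
Dysf, chr6:84019136-84019435 (+): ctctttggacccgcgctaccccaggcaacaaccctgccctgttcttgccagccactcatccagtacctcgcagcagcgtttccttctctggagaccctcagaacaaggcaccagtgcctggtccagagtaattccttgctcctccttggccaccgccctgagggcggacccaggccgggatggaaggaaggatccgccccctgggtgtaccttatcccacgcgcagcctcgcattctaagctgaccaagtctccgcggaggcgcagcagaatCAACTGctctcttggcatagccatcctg

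The Cav3 window held 2 E-boxes and 1 M-CAT match, the Jph2 window 1 E-box, the first Dysf window none of these motifs and the second 1 E-box. Of all 32851 windows of this length, 72.3% held an E-box, 14.7% an M-CAT match, 1.63% a CArG box and 3.19% a MEF2 match. The E-box form CAGCTG, found in the Cav3 and Jph2 windows, was in 16.3% of windows. A match describes these letters and shows no binding.

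Values are log2 intensities as normalised by the authors. A difference is the mutant minus the wild type of its experiment, or line 20b minus line 41, and its standard error (SE) comes from limma. A probe set was called at a Benjamini-Hochberg adjusted p under 0.05 over all probe sets tested in its experiment. The experiments differ in array, strain or age and lie on different scales, so levels are compared only within an experiment and within a probe set. Per array, medians lay between 398 and 438 intensity units (430A) and between 30.2 and 34.4 (430B) for experiment 1, between 298 and 317 (430A) and between 22.3 and 27.9 (430B) for experiment 2, and between 9.56 and 11.6 (430 2.0) for experiment 3. The number of mice limits the precision.

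Clcn1-null mouse 3 stood apart: 15.7% of its tested probe sets lay over 1 log2 unit from the median of the other mice of its group, against 4.48% and 6.65% in the other Clcn1-null mice and 0.38% to 4.95% in the rest of the series. In experiment 1 the summed adipocyte markers were 16.52 and 16.57 in FVB wild-type mice 1 and 2, against 14.94 to 15.50 in the other wild-type mice. Clcn1 read 9.30 to 9.54 in Clcn1-null and 10.25 to 11.27 in BALB wild type, and Mbnl1 1416904_at read 12.90 to 13.20 in Mbnl1-null and 13.76 to 13.88 in wild type. Where these probe sets lie relative to the deleted parts is not given in the sources used here. All 9 skeletal muscle markers stood above log2 5 in every mouse of 6 of the 7 groups, and 8 did in every Mbnl1-null mouse, the exception being the slow-fibre myosin Myh7.

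In line 20b, 6 of 23 member probe sets tested were called higher and 0 lower, where 8.01% of all 22842 probe sets were higher and 10.9% lower. They belonged to Trdn, Bin1, Cav3 and Dysf. In line 41, 5 of 23 were higher and 0 lower, on Trdn, Bin1 and Dysf, against 4.4% and 5.17% of all. In Clcn1-null, 0 of 20 were higher and 1 lower, on Jph2, against 1.91% and 2.81% of 21854. Leaving out 1 mouse, which also makes its group smaller, changed that background from the 1032 probe sets called in the main fit. The count was 34 without BALB mouse 1, 276 without BALB mouse 2 and 33 without BALB mouse 3. It was 497 without Clcn1-null mouse 1, 333 without Clcn1-null mouse 2 and 2187 without Clcn1-null mouse 3. In Mbnl1-null, 2 of 19 were higher, both on Trdn, and 4 lower, on Jph1 and Jph2, against 7.06% and 9.11% of 14749.

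The median difference of the members was -0.04 in line 20b (all probe sets -0.02), 0.13 in line 41 (all -0.01), -0.10 in Clcn1-null (all 0.02) and -0.06 in Mbnl1-null (all -0.02). Both lines were set against the same wild-type mice. Between the lines, line 20b was higher than line 41 on 2 of 23 probe sets (Trdn and Cav3) and lower on 2 (Jph1 and Jph2), against 3.06% and 3.82% of all. The calls were thus spread over 6 of the 8 genes, and Mtm1 and Dnm2 had none. Groups that do not overlap were common among all probe sets tested: line 20b had 10.3% of them, line 41 had 4.23%, Clcn1-null, with 3 mice a group, had 29.6% and Mbnl1-null had 14.1%, with 4.2% between the lines. A lack of overlap named below is to be read against these shares.

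**Figure D1:**
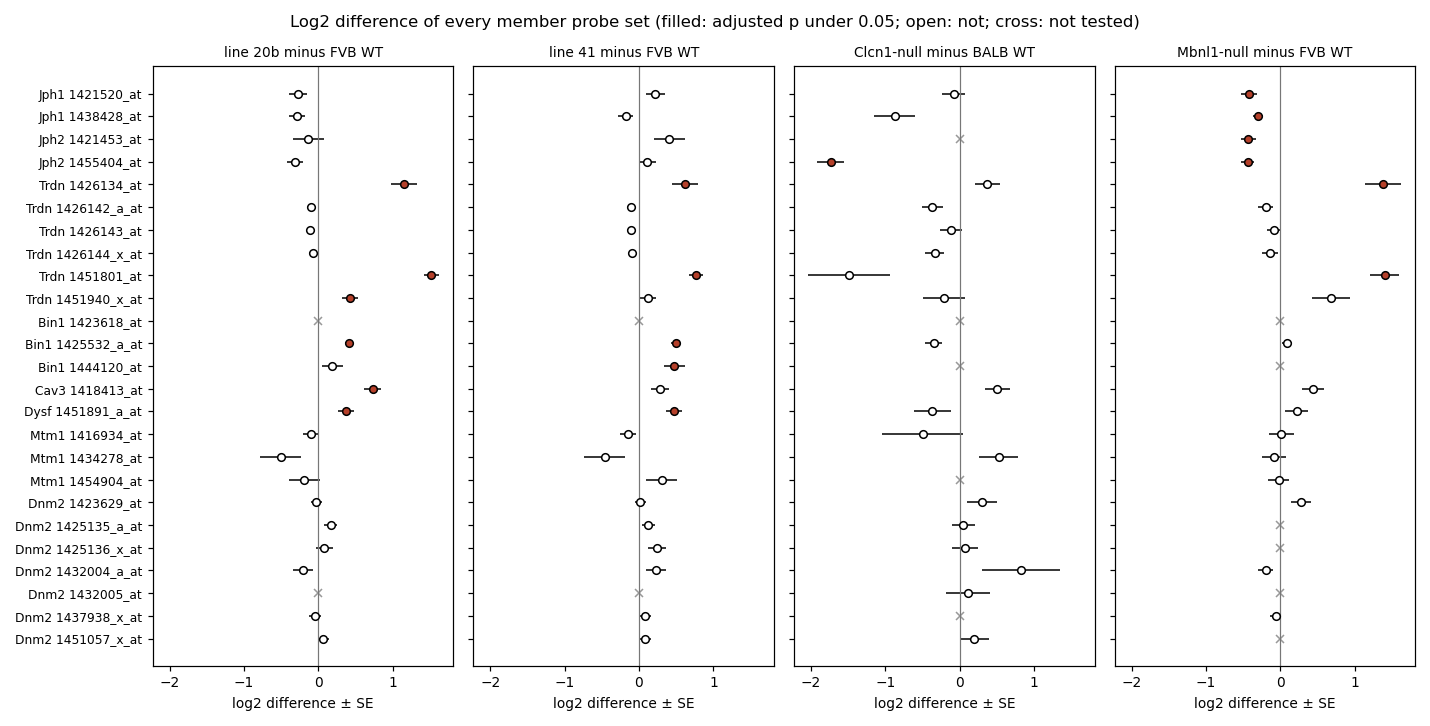
Log2 difference (mutant minus wild type of its experiment; bars are the SE) of the 25 member probe sets in 4 comparisons; filled points have an adjusted p under 0.05, open points do not, and crosses were not tested. Filled points to the right are Trdn, Bin1, Cav3 and Dysf in the CUGexp lines and Trdn in Mbnl1-null, and those to the left are Jph1 and Jph2.

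Trdn (chr10:33083483-33476709) has several protein forms, and its 6 probe sets fell into groups that moved differently. The probe set 1451801_at read 11.38 to 11.76 (median 11.47) in FVB wild type, 11.86 to 12.55 (median 12.30) in line 41 and 12.91 to 13.13 (median 13.07) in line 20b. The 3 groups did not overlap, with line 41 between wild type and line 20b. The difference was 1.52 in line 20b (SE 0.10, adjusted p = 1.05e-08), a 2.86-fold higher intensity. It was 0.77 in line 41 (SE 0.10, adjusted p = 1.03e-04), and between the lines it was 0.75 (adjusted p = 2.67e-04).

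In Mbnl1-null muscle the Trdn probe set 1451801_at read 12.12, 11.09, 11.80, 12.12 and 11.26, and in wild type 10.14, 10.25, 10.52, 10.33 and 10.14. All 5 null mice lay above all wild-type mice (1.40, SE 0.20, adjusted p = 9.63e-04, 2.65-fold). In Clcn1-null it read 12.10, 11.93 and 10.06, against 12.75, 13.04 and 12.78 in BALB wild type. All 3 null mice lay below wild type, and mouse 3 was far lower than the others. The difference of -1.49 (SE 0.55) did not pass (adjusted p = 0.21). Without mouse 3 it was -0.84 and passed (adjusted p = 0.0258).

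The Trdn probe set 1426134_at read 8.07 to 9.11 (median 8.81) in FVB wild type, 9.02 to 9.72 (median 9.26) in line 41 and 9.57 to 10.17 (median 9.80) in line 20b. Line 20b lay above every wild-type mouse (1.15, SE 0.18, adjusted p = 1.51e-04), and line 41 overlapped wild type (0.62, SE 0.18, adjusted p = 0.0354). The line 41 call was lost without wild-type mice 1 and 2 (0.39, adjusted p = 0.183). It was also lost when any of wild-type mice 1, 2 and 4 or line 41 mice 3, 4 and 6 was left out. In Mbnl1-null it read 9.59, 8.36, 8.45, 9.34 and 9.05, against 7.39, 7.19, 7.93, 7.79 and 7.55 in wild type. These groups did not overlap (1.39, SE 0.24, adjusted p = 0.00317). In Clcn1-null it read 8.0, 8.21 and 8.52, against 7.99, 7.79 and 7.84, and the difference did not pass (0.37, SE 0.17, adjusted p = 0.283).

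The Trdn probe set 1451940_x_at shares its source record with 1426134_at. It read 10.16 to 10.57 in wild type, 10.28 to 10.75 in line 41 and 10.56 to 11.00 in line 20b. Line 20b was higher than wild type with a slight overlap (0.42, SE 0.11, adjusted p = 0.00969), and line 41 did not pass (0.13, SE 0.11, adjusted p = 0.532). In Mbnl1-null it read 10.29, 8.80, 9.21, 10.22 and 9.85, against 8.98, 8.90, 9.11, 8.84 and 9.13. Mouse 2 lay below all wild-type mice and the other null mice above them, and the difference did not pass (0.68, SE 0.26, adjusted p = 0.0944). Without that mouse it passed (0.90, adjusted p = 0.0138).

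The other 3 Trdn probe sets, 1426142_a_at, 1426143_at and 1426144_x_at, share a source record of their own and were called in no comparison. On 1426143_at wild-type mice read 14.94 to 15.09, line 41 14.70 to 15.03 and line 20b 14.84 to 15.00. Mbnl1-null mice read 13.35 to 13.83, against 13.62 to 13.85 in wild type. The differences of these 3 probe sets ran from -0.36 to 0.01 over the 5 comparisons. The annotation does not say which exons or transcripts a probe set reads.

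**Figure D2:**
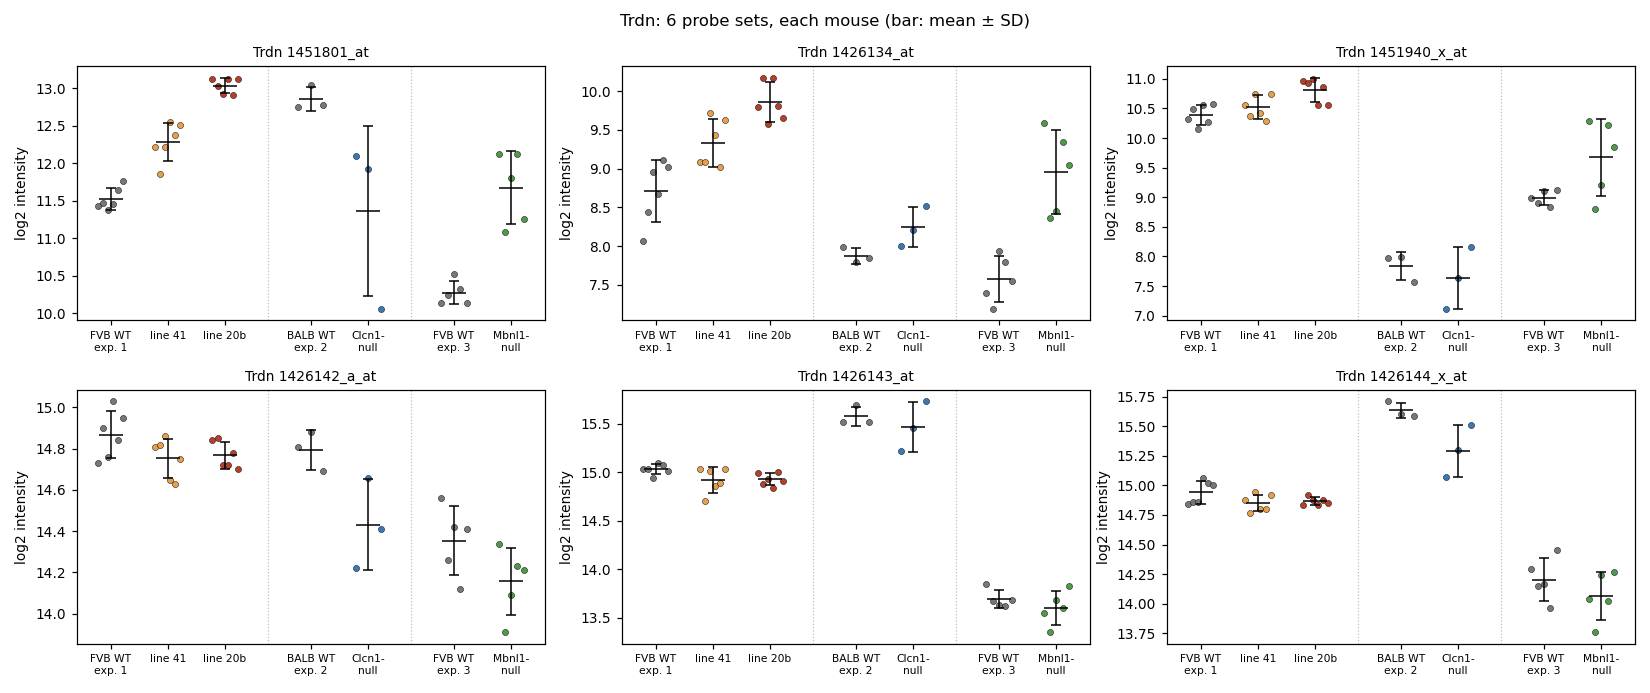
Log2 intensity of the 6 Trdn probe sets in each mouse (points), with the mean and SD of each group (bars); dotted lines separate the experiments. In the top row line 20b is higher than wild type, clear of it on 1451801_at (12.91 to 13.13 against 11.38 to 11.76) and with a slight overlap on 1451940_x_at, and in the bottom row no difference was called.

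To set both behaviours side by side, 1426143_at was subtracted from 1451801_at within each mouse. This pair of Trdn probe sets was chosen after the values were seen, so it is a description with no test. The difference was -3.63 to -3.25 in FVB wild type of experiment 1, -2.84 to -2.31 in line 41 and -2.09 to -1.72 in line 20b. It was -2.57 to -1.42 in Mbnl1-null and -3.71 to -3.11 in its wild type, and -5.67 to -3.12 in Clcn1-null and -2.77 to -2.64 in BALB wild type. Mutant and wild-type mice did not overlap in any experiment. The group means differed by 1.62 in line 20b, 0.88 in line 41, 1.49 in Mbnl1-null and -1.38 in Clcn1-null. Without Clcn1-null mouse 3 the last value was -0.595. For 1426134_at minus 1426143_at, Clcn1-null differed the other way, by 0.49 (-7.24 to -7.20 against -7.90 to -7.54). For 1451940_x_at minus 1426143_at, the Clcn1-null difference was -0.09.

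**Figure D3:**
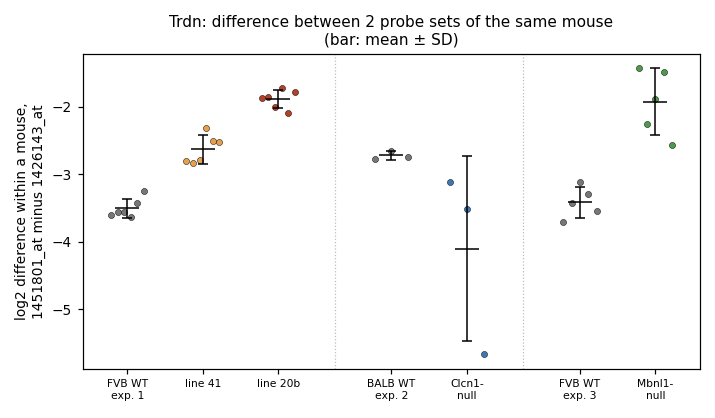
Difference between the Trdn probe sets 1451801_at and 1426143_at in the same mouse (log2 units; points are mice, bars the mean and SD of a group). Line 41, line 20b and Mbnl1-null mice lie above the wild type of their experiment, and the 3 Clcn1-null mice lie below theirs.

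Jph2, a junctophilin of heart and skeletal muscle, read 10.58, 10.97 and 10.42 on 1455404_at in Clcn1-null and 12.54, 12.29 and 12.33 in BALB wild type. The groups did not overlap, and the intensity was 3.32-fold higher in wild type (-1.73, SE 0.18, adjusted p = 0.0107). It was the 1 member probe set called in this comparison. Without Clcn1-null mouse 3 the difference was -1.61 (adjusted p = 0.0108). Without BALB mouse 1 or 3 it did not pass (adjusted p up to 0.0757).

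In Mbnl1-null muscle Jph2 1455404_at read 11.37, 11.68, 11.64, 11.72 and 11.55, against 12.16, 11.93, 11.90, 11.97 and 12.19 in wild type. All null mice lay below all wild-type mice (-0.44, SE 0.09, adjusted p = 0.00653). On 1421453_at the null mice read 9.46, 9.90, 9.67, 9.93 and 9.62 and the wild-type mice 10.14, 10.10, 10.18, 10.04 and 10.26. The groups again did not overlap (-0.43, SE 0.10, adjusted p = 0.014), and the call was lost with each array shifted to the same median (adjusted p = 0.0654). In experiment 2 this probe set was under the test level in both groups and was not tested.

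In experiment 1 Jph2 1455404_at read 12.34 to 12.87 (median 12.51) in wild type, 12.26 to 12.84 (median 12.72) in line 41 and 11.99 to 12.49 (median 12.24) in line 20b. Line 20b was lower than line 41 (-0.43, SE 0.11, adjusted p = 0.0242), with an overlap through line 41 mouse 6. That call was lost when any of line 41 mice 1, 2 and 3 or line 20b mice 4, 5 and 6 was left out. Against wild type, neither line 20b (-0.31, SE 0.11, adjusted p = 0.0552) nor line 41 (0.11, SE 0.11, adjusted p = 0.589) passed. With each array shifted to the same median, line 20b passed (adjusted p = 0.0395), as did Jph1 1438428_at (adjusted p = 0.0427). That makes 6 member probe sets, of 4 genes, higher and 2 lower in that line. Of all probe sets, 2070 were called higher and 2083 lower at this setting.

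Jph1 (chr1:16942104-17097922), a junctophilin of skeletal muscle, fell on both of its probe sets in Mbnl1-null. On 1421520_at the null mice read 10.73, 10.49, 10.33, 10.84 and 10.81 and the wild-type mice 11.09, 11.15, 11.02, 10.90 and 11.14 (-0.42, SE 0.11, adjusted p = 0.0207). On 1438428_at they read 13.45, 13.38, 13.31, 13.51 and 13.28 and 13.79, 13.70, 13.77, 13.58 and 13.59 (-0.30, SE 0.07, adjusted p = 0.011). The groups did not overlap on either. The call on 1421520_at was lost without wild-type mouse 2 (adjusted p = 0.0554), and that on 1438428_at with the median shift (adjusted p = 0.0771).

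In experiment 1 Jph1 1421520_at read 13.26 to 13.74 (median 13.30) in wild type, 13.26 to 14.20 (median 13.63) in line 41 and 12.98 to 13.23 (median 13.16) in line 20b. Line 20b lay below every line 41 mouse (-0.49, SE 0.12, adjusted p = 0.022), a call lost without line 20b mouse 6 (adjusted p = 0.0502). Neither line 20b (-0.27, SE 0.12, adjusted p = 0.148) nor line 41 (0.22, SE 0.12, adjusted p = 0.303) passed against wild type. The brighter Jph1 1438428_at read 13.79 to 14.39 in wild type, 13.75 to 14.27 in line 41 and 13.53 to 13.98 in line 20b. The lines overlapped there and their difference did not pass (-0.11, SE 0.11, adjusted p = 0.633). Line 41 was -0.18 from wild type on it (SE 0.11, adjusted p = 0.331) and line 20b -0.29 (SE 0.11, adjusted p = 0.0635). On 1438428_at the Clcn1-null mice read 12.89, 12.84 and 11.93 and BALB wild type 13.52, 13.35 and 13.41. All null mice were lower, mouse 3 most, and the difference did not pass (-0.87, SE 0.27, adjusted p = 0.154). Without mouse 3 it was -0.56 and passed (adjusted p = 0.0272). On Jph1 1421520_at the Clcn1-null mice read 9.05 to 9.26, against 9.05 to 9.44 in BALB wild type. These groups overlapped and the difference did not pass (-0.08, SE 0.15, adjusted p = 0.783).

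**Figure D4:**
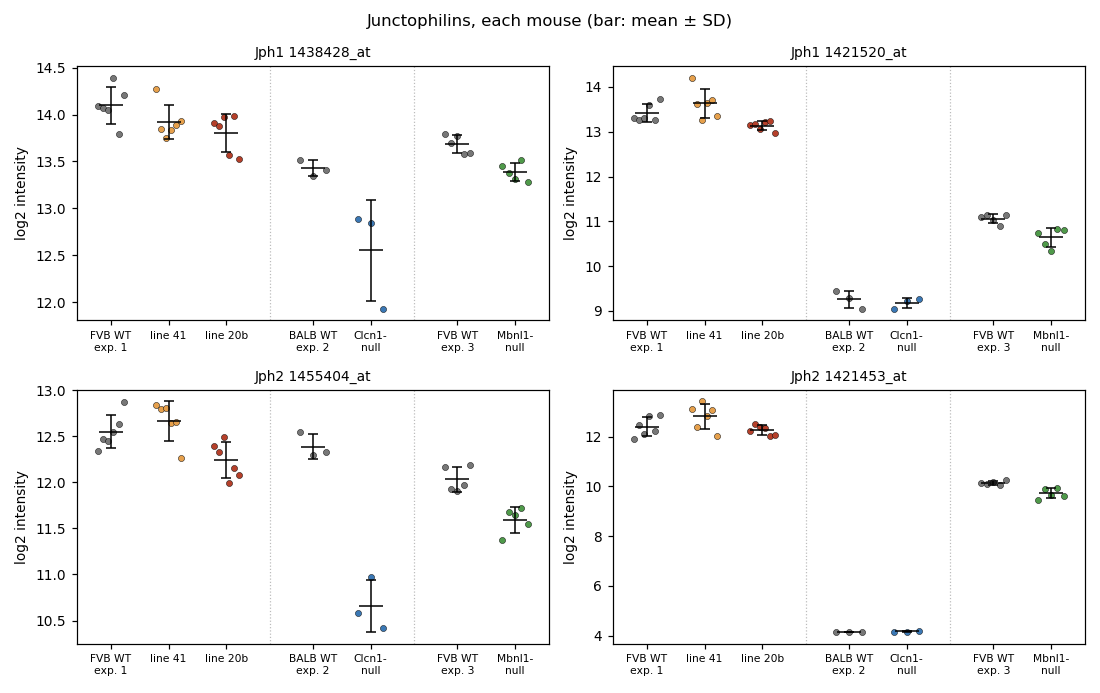
Log2 intensity of the Jph1 and Jph2 probe sets in each mouse (points), with the mean and SD of each group (bars). Mbnl1-null mice lie below their wild type on all 4 panels, as 14.1% of all probe sets lay apart in that comparison, and on Jph2 1455404_at the Clcn1-null mice read 10.42 to 10.97 against 12.29 to 12.54.

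Of the 13 probe sets of the skeletal muscle markers, 3 were called lower in Clcn1-null (Myh7, Tnni1 and Myh4) and 3 in Mbnl1-null (Myh7, Tnni1 and Ckm), and 10 were not called in each. Against wild type, 4 of the 13 were lower in line 20b and 1 in line 41, and 3 were lower in line 20b than in line 41. Myh7 and Tnni1 are given here because they were lower in both Clcn1-null and Mbnl1-null, a choice made after their values were seen. Myh7 read 6.90 to 10.06 in Clcn1-null against 12.48 to 13.03, and 2.09 to 9.93 in Mbnl1-null against 11.57 to 12.19. Tnni1, slow troponin I, read 7.75 to 10.43 in Clcn1-null against 12.43 to 12.62, and 7.56 to 9.96 in Mbnl1-null against 10.96 to 11.44. The summed skeletal muscle markers were 18.47 to 19.10 in Clcn1-null against 19.02 to 19.26, and 18.50 to 18.83 in Mbnl1-null against 18.63 to 18.82. The summed adipocyte markers were 16.66 to 16.99 in Clcn1-null against 15.37 to 15.69, with 4 of 5 measured markers above log2 5 and Lep below it. The part of these markers in the junctophilin results was not tested.

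Bin1 (chr18:32376618-32435740) encodes a protein that bends membrane into tubules. On 1425532_a_at wild-type mice read 13.07 to 13.28 (median 13.14), line 41 13.51 to 13.85 (median 13.61) and line 20b 13.41 to 13.63 (median 13.58). Both lines lay above every wild-type mouse and overlapped each other. The difference was 0.41 in line 20b (SE 0.06, adjusted p = 6.86e-05) and 0.49 in line 41 (SE 0.06, adjusted p = 4.74e-05). In Mbnl1-null the mice read 13.76, 13.71, 13.51, 13.64 and 13.53, against 13.48, 13.48, 13.42, 13.61 and 13.69, and the groups overlapped (0.09, SE 0.07, adjusted p = 0.421). In Clcn1-null they read 13.18, 13.32 and 13.07, against 13.58, 13.43 and 13.61. All null mice were lower, but the difference did not pass (-0.35, SE 0.12, adjusted p = 0.18).

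The dimmer Bin1 probe set 1444120_at read 8.21 to 8.51 in line 41, 7.46 to 8.30 in line 20b and 7.39 to 8.12 in wild type. Line 41 passed (0.48, SE 0.14, adjusted p = 0.0437) and line 20b did not (0.19, SE 0.14, adjusted p = 0.423). The line 41 call was lost in 13 of 18 fits that left out 1 mouse, namely wild-type mice 1, 2, 3 or 5, any line 41 mouse, or line 20b mice 2, 5 or 6. It was also lost without wild-type mice 1 and 2 (adjusted p = 0.122). The third Bin1 probe set, 1423618_at, was under the test level in all 3 experiments.

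Cav3, the muscle caveolin, has 1 probe set, 1418413_at. It read 12.12 to 12.61 (median 12.33) in wild type, 12.45 to 12.74 (median 12.65) in line 41 and 12.68 to 13.42 (median 13.13) in line 20b. Line 20b lay above every wild-type mouse (0.73, SE 0.12, adjusted p = 2.54e-04, 1.66-fold) and above line 41 with a slight overlap (0.45, SE 0.12, adjusted p = 0.028). Line 41 did not pass against wild type (0.28, SE 0.12, adjusted p = 0.155). The call between the lines was lost without line 41 mouse 1 or 4, or line 20b mouse 3, 5 or 6.

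In Clcn1-null Cav3 read 12.03, 11.86 and 11.94, against 11.71, 11.18 and 11.42. All null mice were higher, and the difference did not pass (0.51, SE 0.17, adjusted p = 0.172). In Mbnl1-null it read 10.48, 11.18, 10.46, 10.78 and 10.49, against 9.95, 10.27, 10.39, 10.45 and 10.12. All null mice were again higher, and the difference did not pass (0.44, SE 0.15, adjusted p = 0.0695). It passed in separate fits with quantile normalisation (adjusted p = 0.0423), array weights (adjusted p = 0.0353) and the mouse number as a block (adjusted p = 0.0353). All Mbnl1-null calls in these fits were 2886, 3295 and 3017, against 2384 in the main fit.

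Dysf, or dysferlin, has 1 probe set, 1451891_a_at. It read 11.58 to 12.10 (median 11.78) in wild type, 12.03 to 12.65 (median 12.21) in line 41 and 12.00 to 12.42 (median 12.14) in line 20b. Both lines overlapped the highest wild-type mouse. The difference passed in line 20b (0.37, SE 0.11, adjusted p = 0.0213) and in line 41 (0.47, SE 0.11, adjusted p = 0.0106). Without wild-type mice 1 and 2 it passed in neither (0.30, adjusted p = 0.107, and 0.40, adjusted p = 0.0641). The line 20b call was also lost without wild-type mouse 2 or line 20b mouse 3 or 5.

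In Clcn1-null Dysf read 10.40, 10.69 and 9.78, against 10.64, 10.64 and 10.69. Mouse 3 was low and the difference did not pass (-0.37, SE 0.24, adjusted p = 0.457). In Mbnl1-null it read 9.14, 9.74, 9.14, 9.48 and 8.92, against 8.98, 8.97, 9.12, 9.32 and 8.94, and the groups overlapped (0.22, SE 0.15, adjusted p = 0.354).

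**Figure D5:**
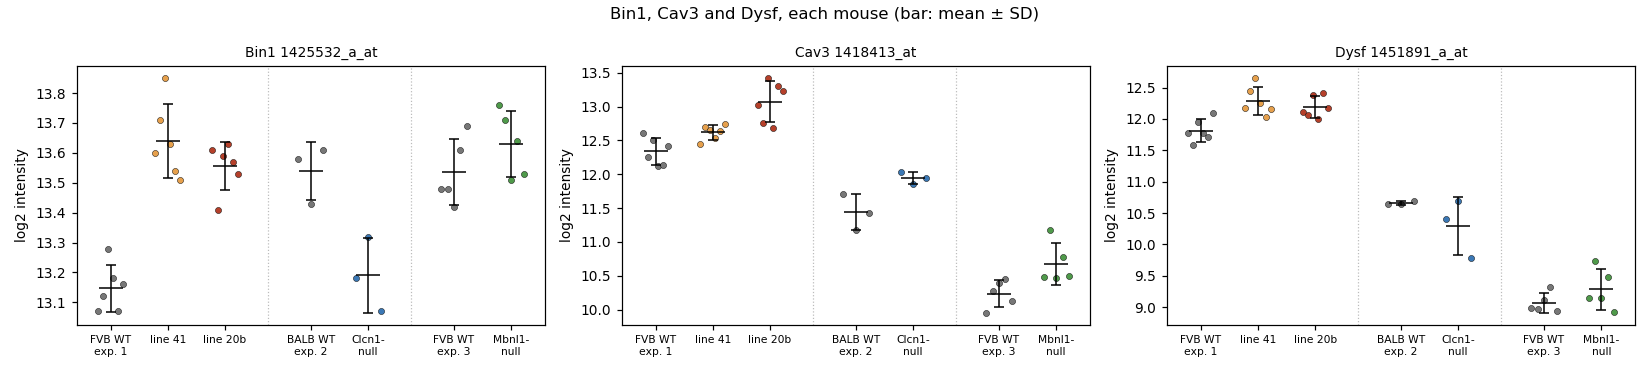
Log2 intensity of Bin1 1425532_a_at, Cav3 1418413_at and Dysf 1451891_a_at in each mouse (points), with the mean and SD of each group (bars). Both CUGexp lines lie above wild type on Bin1, line 20b (12.68 to 13.42) lies above wild type (12.12 to 12.61) on Cav3, and the groups overlap on Dysf.

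Mtm1 (chrX:71210767-71315413), a phosphatase of membrane phosphoinositides, was called on none of its 3 probe sets in the 5 comparisons, where its differences ran from -0.50 to 0.52. On 1416934_at wild-type mice read 10.81 to 11.48, line 41 10.74 to 11.31 and line 20b 10.91 to 11.19, and the groups overlapped. The Clcn1-null mice read 11.33, 11.14 and 9.30, against 11.06 to 11.11 in BALB, so that mouse 3 alone was low (-0.50, SE 0.54, adjusted p = 0.632). On Mtm1 1434278_at the difference went the other way. The Clcn1-null mice read 13.80, 12.84 and 13.53, against 12.72 to 13.02 in BALB (0.52, SE 0.26, adjusted p = 0.329).

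Dnm2 (chr9:21424908-21507759), a dynamin, was likewise called on none of its 7 probe sets, where its differences ran from -0.44 to 0.83. On 1423629_at wild-type mice read 10.07 to 10.33, line 41 10.07 to 10.47 and line 20b 10.08 to 10.31, and the groups overlapped. The difference there was -0.03 (SE 0.07) in line 20b and 0.02 (SE 0.07) in line 41. The lowest adjusted p of the gene was 0.067, for line 20b minus line 41 on 1432004_a_at (-0.44, SE 0.14).

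The partners of the triad junction were read from a list of 14 genes. In line 20b 4 of 29 probe sets were higher and 3 lower (median 0.09), and in line 41 4 were higher and 0 lower (median 0.11). In Clcn1-null 1 of 29 was higher and 4 lower (median -0.39), and in Mbnl1-null 3 of 27 were higher and 1 lower (median -0.02). Line 20b was higher than line 41 on 1 of 29 and lower on 4 (median -0.02). The percentages and medians of all probe sets given above apply to these lists.

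Asph, the locus of junctin, which like triadin binds calsequestrin, read 7.46 to 9.15 on 1420959_at in wild type, 9.07 to 9.71 in line 41 and 9.90 to 10.34 in line 20b. Line 20b lay above every wild-type mouse (1.97, SE 0.21, adjusted p = 2.70e-06), and line 41 overlapped wild type (1.21, SE 0.21, adjusted p = 0.00132). In Mbnl1-null it read 7.47 to 8.33, against 5.72 to 6.57, without overlap (1.66, SE 0.21, adjusted p = 4.12e-04). The line 20b values also lay above line 41 (0.76, SE 0.21, adjusted p = 0.0351), a call lost without any 1 of line 41 mice 1 to 4 or line 20b mice 2 to 5. Asph 1426015_s_at rose in line 20b (0.67, SE 0.21, adjusted p = 0.0285), which was lost without wild-type mouse 3, 4, 5 or 6 or line 20b mouse 2 or 4, and in Mbnl1-null (1.04, SE 0.27, adjusted p = 0.0213), which was lost without wild-type mouse 2 or Mbnl1-null mouse 4. The locus makes other proteins too, and the annotation does not say which transcripts are read.

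Cacng1, the gamma subunit of the voltage sensor, read 11.28 to 11.63 in wild type, 12.08 to 12.55 in line 41 and 12.38 to 12.64 in line 20b. Both lines (1.09, SE 0.08, adjusted p = 5.09e-08, and 0.81, SE 0.08, adjusted p = 6.47e-06) and Mbnl1-null (0.93, SE 0.12, adjusted p = 6.76e-04) lay above their wild type without overlap.

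Jsrp1, a further protein of the junction, rose in line 41 (0.49, SE 0.12, adjusted p = 0.0173), and not without wild-type mice 1 and 2 (adjusted p = 0.0659). Fkbp1a, which binds the release channel, and Cacna2d1 1425861_x_at were lower in line 20b than in line 41 (-0.40, SE 0.07, adjusted p = 0.0023, and -0.38, SE 0.06, adjusted p = 0.00157). Other partners were lower in Clcn1-null. Cacna1s, the pore of the voltage sensor, read 12.54 to 12.76, against 13.71 to 13.91 (-1.22, SE 0.12, adjusted p = 0.00953). Cacna2d1, a further subunit, was also lower there on 1433643_at (-1.30, SE 0.20, adjusted p = 0.0282). On Asph 1426015_s_at the Clcn1-null mice were higher, 11.49 to 12.49 against 10.04 to 10.64 (1.64, SE 0.30, adjusted p = 0.0412). The Cacna1s call was lost without BALB mouse 1 or 3, the Cacna2d1 call without any BALB mouse or Clcn1-null mouse 1, and the Asph call when any mouse other than Clcn1-null mouse 3 was left out.

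Of the genes of T-tubule formation and phosphoinositides (19 listed), 4 of 35 probe sets were higher and 7 lower in line 20b (median -0.10), and 1 and 4 in line 41 (median -0.05). In Clcn1-null they were 1 and 0 of 31 (median 0.09), and in Mbnl1-null 3 and 0 of 26 (median 0.01). Speg, a kinase that binds myotubularin, rose on 1448664_a_at in line 20b, 10.04 to 11.03 against 8.96 to 10.08 (1.00, SE 0.19, adjusted p = 0.00116), and in Mbnl1-null, 9.49 to 10.06 against 8.70 to 9.43 (0.84, SE 0.16, adjusted p = 0.00556). Ehd2, a membrane-bending ATPase of caveolae, was lower on 1435785_at in line 20b (-0.70, SE 0.11, adjusted p = 1.21e-04) and line 41 (-0.50, SE 0.11, adjusted p = 0.00535) and higher in Clcn1-null (0.70, SE 0.14, adjusted p = 0.0496), a call lost when any mouse other than Clcn1-null mouse 3 was left out.

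A further Ehd2 probe set, 1459823_at, was lower in line 41 (-0.61, SE 0.11, adjusted p = 0.00189). Pikfyve, a lipid kinase, was lower in line 20b (-0.93, SE 0.27, adjusted p = 0.0193), and not without wild-type mice 1 and 2 (adjusted p = 0.133). Pacsin3, a membrane-bending protein of muscle, was higher in line 41 on 1416995_at (0.52, SE 0.11, adjusted p = 0.00561). On 1437834_s_at it was higher in line 20b than in line 41 (0.33, SE 0.10, adjusted p = 0.046), the 1 call of 35 between the lines, lost in 13 of 18 fits that left out 1 mouse, all but those without wild-type mouse 1 or 3, line 41 mouse 1 or line 20b mouse 2 or 4. In Mbnl1-null, Speg 1417305_at (0.62, SE 0.16, adjusted p = 0.0224) and Ehd4 (0.53, SE 0.13, adjusted p = 0.0203) were higher. This Speg probe set was near the test level of log2 5, with means of 5.59 in Mbnl1-null and 4.97 in wild type. The Speg call was lost without wild-type mouse 4 or Mbnl1-null mouse 4, and the Ehd4 call without wild-type mouse 3 and with the median shift.

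Of the membrane repair and caveola genes (16 listed), 6 of 29 probe sets were higher and 5 lower in line 20b (median 0.11), and 3 and 5 in line 41 (median 0.07). In Clcn1-null they were 3 and 3 of 29 (median 0.32), and in Mbnl1-null 5 and 2 of 24 (median 0.13). Cavin2, a coat protein of caveolae, read 12.30 to 12.88 in line 20b and 12.42 to 12.67 in line 41 on 1416778_at, against 13.25 to 13.88 in wild type. Both lines lay below wild type (-0.96, SE 0.12, adjusted p = 1.62e-05, and -0.95, SE 0.12, adjusted p = 8.11e-05). Cav2 1417327_at (-0.86, SE 0.21, adjusted p = 0.00697, and -1.05, SE 0.21, adjusted p = 0.00371) and Cav1 1449145_a_at (-0.53, SE 0.13, adjusted p = 0.00825, and -0.67, SE 0.13, adjusted p = 0.00353) were lower in both lines too.

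The other Cavin2 probe sets were lower as well, 1443832_s_at in line 20b (-0.97, SE 0.10, adjusted p = 1.76e-06) and 1416779_at in both lines (-0.94, SE 0.12, adjusted p = 2.13e-05, and -0.98, SE 0.12, adjusted p = 5.63e-05). In line 41 the 5 lower probe sets of this list were those of Cav1, Cav2 and all the Cavin2 probe sets named here. Cavin2 1443832_s_at is given for line 20b alone because only there was it among the 3 largest differences. Ahnak, a large scaffold protein at the membrane, was higher in line 20b than in line 41 on 1452217_at (0.30, SE 0.06, adjusted p = 0.00667), the 1 call of 29 between the lines. In Clcn1-null, Ahnak 1428057_a_at (-1.18, SE 0.21, adjusted p = 0.038), Capn3, a muscle calpain (-1.04, SE 0.19, adjusted p = 0.0414), and Bves 1439848_at (-0.85, SE 0.16, adjusted p = 0.0463) were lower. Each of these calls was lost when any mouse other than Clcn1-null mouse 3 was left out. In Mbnl1-null, Bves 1419003_at (0.74, SE 0.15, adjusted p = 0.00754) and Anxa1, an annexin (0.58, SE 0.15, adjusted p = 0.0214), were higher and Capn3 lower (-0.57, SE 0.09, adjusted p = 0.00225). The Anxa1 call was lost without wild-type mouse 1 or Mbnl1-null mouse 3 and with the median shift.

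Endothelial and mural markers were lower in the same groups, on 8 of 10 probe sets in line 20b and 7 in line 41. Their summed value was 14.77 to 15.05 in line 20b and 14.42 to 15.04 in line 41, against 15.11 to 15.54 in wild type, and none of the 7 markers was below log2 5. Adipocyte markers were lower on 7 of 7 probe sets in line 20b and 2 in line 41. Schwann cell and nerve markers were lower on 7 of 9 probe sets in line 20b and 3 in line 41, with summed values of 12.78 to 13.40 and 12.22 to 13.62 against 13.42 to 14.02 in wild type. The part of these markers in the results on Cav1, Cav2 and Cavin2 was not tested.

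Of the genes that anchor these membranes to the sarcomere (7 listed), 2 of 12 probe sets were higher and 2 lower in line 20b (median 0.13), and 3 and 0 in line 41 (median 0.22). In Clcn1-null they were 0 and 2 of 11 (median 0.34), and in Mbnl1-null 1 and 2 of 7 (median 0.13). Ank1, whose small muscle forms anchor the reticulum, was lower in Clcn1-null on 1419421_at (-1.61, SE 0.29, adjusted p = 0.0384) and 1425677_a_at (-1.32, SE 0.23, adjusted p = 0.0369), and both calls were lost when any mouse other than Clcn1-null mouse 3 was left out. In Mbnl1-null it was lower on 1425677_a_at (-0.41, SE 0.09, adjusted p = 0.0133) and 1419421_at (-0.35, SE 0.11, adjusted p = 0.0442), and both calls were lost with the median shift. The second was also lost in 7 of 10 fits that left out 1 mouse, all but those without wild-type mouse 1 or Mbnl1-null mouse 2 or 4. In line 20b it was lower on 1425677_a_at (-0.39, SE 0.12, adjusted p = 0.0303), which was lost with the median shift and without wild-type mouse 3, 4, 5 or 6 or line 20b mouse 1, 2, 5 or 6. The 2 lower probe sets of this list in line 20b were both of Ank1.

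Obsl1, a relative of obscurin, rose on 1460414_at in line 20b (7.75 to 8.81) and line 41 (7.72 to 9.11), against 4.54 to 6.93 in wild type (2.40, SE 0.36, adjusted p = 1.21e-04, and 2.51, SE 0.36, adjusted p = 2.89e-04). It was also higher on 1457121_at in Mbnl1-null (1.01, SE 0.22, adjusted p = 0.0101), and on 1427535_s_at in line 41 (0.80, SE 0.25, adjusted p = 0.0493), a call lost in 12 of 18 fits that left out 1 mouse, all but those without wild-type mouse 2 or 6, line 41 mouse 5 or 6 or line 20b mouse 1 or 2. Nrap, an actin-binding protein of muscle, rose in line 20b (0.58, SE 0.09, adjusted p = 1.68e-04) and in line 41 (0.33, SE 0.09, adjusted p = 0.0298). The line 41 call was lost without wild-type mouse 1, 2 or 5 or line 41 mouse 1 or 3. Between the lines 0 of 12 were higher and 0 lower.

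Of 11 relatives of the members (Jph3, Jph4, Cav1, Cav2, Dnm1, Dnm3, Mtmr1, Mtmr2, Myof, Amph and Asph), 2 of 17 probe sets were higher and 3 lower in line 20b, 1 and 2 in line 41, 1 and 0 of 17 in Clcn1-null and 2 and 0 of 10 in Mbnl1-null. The higher ones were all Asph, and the lower ones were Cav1, Cav2 and, in line 20b, Mtmr2, a relative of Mtm1 (-0.36, SE 0.12, adjusted p = 0.0393).

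The genes whose pattern over the 18 mice of experiment 1 was most like that of a member's main probe set, the one with the highest mean log2 value over the 3 experiments, were found among 12954 genes by Pearson's r. Each gene below is followed by its r over all mice, which includes differences between groups, and its r within groups. For Jph1 they were Naa50 (0.86, 0.81), Tnrc6b (0.83, 0.76) and Ikzf5 (0.83, 0.78), and for Jph2 Rab10 (0.88, 0.75), Vps72 (0.87, 0.75) and Hif1an (0.87, 0.72). For Trdn 1426144_x_at they were Myct1 (0.85, 0.80), Ganc (0.80, 0.74) and Hesx1 (0.75, 0.68). For Bin1 they were Map1b (0.94, 0.56), Uchl1 (0.94, 0.59) and Myo1a (0.93, 0.39), for Cav3 Flrt2 (0.92, 0.77), Plekha1 (0.92, 0.70) and Tcaim (0.91, 0.67) and for Dysf Itpkc (0.89, 0.74), Ube2z (0.88, 0.80) and Nfe2l1 (0.87, 0.73). For Mtm1 they were Naaa (0.89, 0.88), Mllt10 (0.87, 0.88) and Gpatch8 (0.87, 0.86), and for Dnm2 1700001G11Rik (0.76, 0.83), Fer (0.75, 0.75) and Bmp8a (0.75, 0.75). In experiment 1 alone other probe sets of Trdn, Mtm1 and Dnm2 read brighter than these. The mice share arrays and normalisation, and the values are a description of these mice.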

How the data were processed

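Quadriceps RNA of 34 mice was read on Affymetrix arrays. The authors deposited linear intensities per probe set, with GCRMA named in the submitters' processing notes; its version and settings are not given in the sources used here. Intensities were put on the log2 scale, and values of 430A and 430B were joined per mouse through the title number. Of 45037 probe sets, 34945 had 1 gene symbol in the platform annotation, 932 had several and 9160 had none. Only those with 1 symbol were used, and a probe set was tested where at least as many mice as the smallest group holds reached log2 5 (intensity 32). Each experiment was fitted in R 4.3.3 with limma 3.58.1 over group means, using eBayes with a mean-variance trend and Benjamini-Hochberg adjustment. The code was tested on simulated data. Named are all members, relatives, targeted genes and, from each wider list and comparison, the 3 called probe sets with the largest difference; Myh7 and Tnni1, from the marker list, were added after their values were seen. Alternatives changed the scaling, filter, pseudocount, eBayes, weights, threshold, probe sets per gene and mice used; other reference probe sets for the Trdn pair were added after seeing the data. The members and lists were chosen with earlier results of these data known.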

Additional observations from a re-analysis of the deposited data

Results flagged for a closer look

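Of 107 groups of 5 or 6 mice on the member probe sets in experiments 1 and 3, 9 held a mouse far from the others. Chance does this in about 1 in 20 groups. Experiment 2 was not part of this check. Line 41 mouse 1 was high on Jph1 1438428_at (14.27), line 41 mouse 6 low on Jph2 1455404_at (12.26) and line 41 mouse 3 low on Mtm1 1434278_at (8.53). Line 20b mouse 3 was high on Dnm2 1425135_a_at (9.89), and line 20b mouse 1 low on Dnm2 1432004_a_at (10.18). In FVB wild type of experiment 3, mouse 1 was high on Trdn 1426143_at (13.85), mouse 2 high on Dnm2 1437938_x_at (8.19), and mouse 5 low on Mtm1 1416934_at (8.95) and Mtm1 1454904_at (4.94). On both Mtm1 probe sets Mbnl1-null mouse 5 was also the lowest of its group (8.92 and 4.65). Whether same-numbered mice shared a handling step was not tested.

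The CUGexp lines differed from each other, by the test of line 20b minus line 41, on Trdn 1451801_at (0.75), Cav3 1418413_at (0.45), Jph2 1455404_at (-0.43) and Jph1 1421520_at (-0.49).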

How the results depend on the processing

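With 1 probe set per gene, 3 members were called in line 20b, 2 in line 41, 2 between the lines and 2 in Mbnl1-null. All calls were then 2566, 1228, 760 and 1462, against 4310, 2187, 1573 and 2384 in the main fit, which tested more probe sets. At an adjusted p under 0.01, 2 were called in line 41, 1 between the lines, 0 in Clcn1-null and 3 in Mbnl1-null. All calls at that threshold were 872, 600, 136 and 1055. In line 41, 3 were called with no filter, 3 with array weights and 2 without wild-type mice 1 and 2. All line 41 calls were then 1680, 1896 and 1351, against 2187 in the main fit. In Clcn1-null, 6 of 20 were called with array weights, whose estimate stopped before it converged. Calls over all 21854 probe sets rose there from 1032 to 6675. The title numbers were not taken to pair the mice: same-numbered mice correlated at over 0.1 in 1 of 6 pairs for line 20b, 2 of 6 for line 41, 0 of 3 in Clcn1-null and 4 of 5 in Mbnl1-null (0.0207 to 0.402), where the block raised all calls from 2384 to 3017. The replicate block left 0 member calls in Clcn1-null (Jph2 1455404_at, adjusted p = 0.0628), where all calls fell from 1032 to 133. It also ended the Jph2 call between the lines (adjusted p = 0.0512). With a median shift, Jph1 1438428_at and Jph2 1421453_at missed in Mbnl1-null (adjusted p = 0.0771 and 0.0654), where all calls fell from 2384 to 1355. Leaving out 1 mouse gave 5 to 7 member calls in line 20b, 3 to 5 in line 41, 1 to 6 between the lines, 0 to 3 in Clcn1-null and 5 to 7 in Mbnl1-null. All calls ran, in the same order, from 3710 to 4469, 1570 to 2220, 1089 to 1886, 33 to 2187 and 1637 to 2493. Over 72 called differences of single probe sets, 1634 of 1878 alternatives kept direction and call, 244 lost the call and 0 changed sign. These differences were taken because they were called, and the alternatives reuse the same mice. A change of sign was thus unlikely from the start. The within-mouse difference of Trdn 1451940_x_at in Clcn1-null, -0.09, was 0.13 and 0.16 against the other reference probe sets and -0.225 to 0.0394 with 1 mouse left out. The causes were not tested.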
